A study of Homo sapiens with 6 samples.

Results

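Integrins and the focal adhesion proteins that tie them to actin were examined in the transcriptome of U87-MG, an established human glioblastoma cell line. The members were a given list of 17 integrin subunits and 18 focal adhesion proteins, 35 genes of the 61731 genes and loci in the deposited table, and all 35 were found there by gene symbol. The RNA came from 3 libraries of negative control cells (labelled U87_NC, genotype Normal control) and 3 libraries labelled as knockdown of CHRM3 (U87_KD, genotype CHRM Knockdown). CHRM3 encodes the M3 muscarinic acetylcholine receptor, and the study asked what its loss does to invasive growth. The knockdown was made with a lentivirus, and the methods name several knockdown sequences without saying which these libraries carried. Whether the libraries within a group were separate cultures is not stated, so the p-values measure only the spread between these libraries, which may be technical.

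An integrin is a pair of 1 alpha and 1 beta subunit that spans the membrane and holds the cell to matrix proteins such as laminin, collagen and fibronectin. Inside the cell the beta tail is bound by talin and kindlin, which switch the receptor to its active shape. Vinculin, alpha-actinin, filamin and tensin then link the site to actin, and the kinases FAK and SRC signal from it. Glioma cells use such contacts to crawl along brain matrix and vessels, which is why these genes are often read beside the matrix proteases.

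Values are TPM, a share of each library that takes transcript length into account, so levels of different genes can be set side by side. Sequencing depth cannot be read from TPM and is unknown for each library, and no counting error can be given. Between 13518 and 13664 genes reached 1 TPM in each library, and mitochondrial transcripts took 5.32% to 5.47% of the TPM in the controls and 4.41% to 4.87% in the knockdown-labelled libraries. The targeted gene did not separate the groups, as CHRM3 was 0.02, 0.09 and 0.13 TPM in the controls and 0.13, 0.01 and 0.02 TPM in the knockdown-labelled libraries. Values this near the rounding step of the table can show neither a knockdown nor its absence. The paper reports from separate assays that CHRM3 was knocked down efficiently in U87 cells, and it names the most efficient sequence. The groups below rest on their labels. Of the markers of the line, vimentin (VIM) lay between 6528 and 7451 TPM in all 6 libraries, and CDKN2A and CDKN2B, which are deleted in U87 cells, were listed at 0. The 7 leukocyte and platelet markers all stayed under 1 TPM in every library, with 4 of them (TYROBP, CD3E, PF4 and GP9) listed at 0 throughout, and so did the 4 endothelial markers. The 4 epithelial markers summed to 2.87 to 3.83 TPM in the controls and 7.49 to 9.42 TPM in the knockdown-labelled libraries, mostly from the keratin KRT8, while CDH1 did not exceed 0.11 TPM. The part of that difference in the results below was not tested.

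Adhesion genes moved in both directions, and among the members abundant enough to test the called changes were all under 1 on the log2(TPM + 1) scale, which understates the change of low genes. Of the 35 members, 27 averaged 1 TPM or more across the 6 libraries and entered the test, a limma fit on log2(TPM + 1) over 13722 genes. At an adjusted p under 0.05, 15 of the 27 (55.6%) were called, against 36.1% of all tested genes. Of the 27, 9 were called higher in the knockdown-labelled libraries, against 12.1% of all tested genes, and 6 lower, against 24%. Genes of high level are called more often, and among genes that averaged 10 TPM or more the shares lay nearer, with 13 of 24 members (54.2%) against 48.4% of all such genes. The calls of all such genes were not split by direction, so the excess of higher calls has no background of like level. The 3 values of one group lay wholly above or below those of the other for 17 of the 27 tested members (63%), against 50.2% of all tested genes. No member reached an absolute log2 fold change of 1 in the limma fit, a size that 1.87% of all tested genes passed with an adjusted p under 0.05, although 16 members had an unadjusted p under 0.05. The called changes ran from 0.12 to 0.71 in absolute log2 fold change, and 3 of the 15 (ITGA3, TNS1 and SRC) were at least 0.5. The share of all tested genes called at that size was not counted. The median log2 fold change was 0.02 over the tested members and -0.06 over all tested genes. With the TPM rescaled by median of ratios, 12 members were higher and 5 lower, so the higher share of the members' calls went from 60% to 70.6%. Over all tested genes that scaling called 33.2%, against 63% of the tested members, and moved the higher share of the calls from 33.5% to 50.7%. It moved the median log2 fold change of all tested genes to 0.0028.

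**Figure D1:**
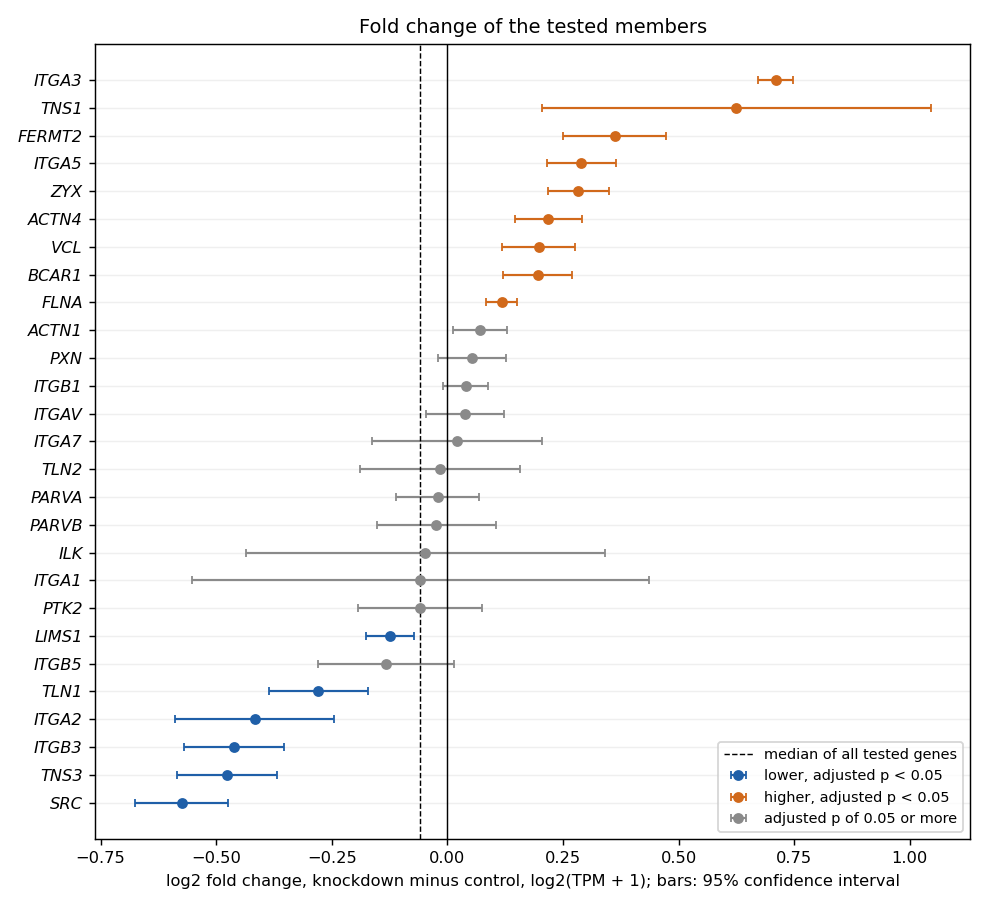
Log2 fold change (knockdown-labelled minus control, on the log2(TPM + 1) scale, x axis) of the 27 tested members, with points for limma estimates and bars for 95% confidence intervals. Orange marks the 9 genes called higher, blue the 6 called lower and grey the 12 that did not pass, and the dashed line is the median of all tested genes at -0.06. ITGA3 at 0.71 and SRC at -0.57 lie at the ends.

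Promoter sequences are shown for 5 of the members whose RNA changed, ITGA5, VCL and FLNA, which rose, and TNS3 and LIMS1, which fell. They were picked with the motif counts known, to show windows with different kinds of match and 1 with none, and do not stand for the genes that rose or fell. They are the 250 bases before the RefSeq start on GRCh38.p14, read in the direction of the gene. Capitals mark matches on either strand to GGGCGG (also written as its reverse complement CCGCCC, the core of SP and KLF sites), TGACTCA (AP-1), CATTCC (reverse complement GGAATG, TEAD) and the CArG box (SRF). The windows are chr12:54419267-54419516 on the minus strand for ITGA5, chr10:73997866-73998115 on the plus strand for VCL, chrX:154374635-154374884 on the minus strand for FLNA, chr7:47582587-47582836 on the minus strand for TNS3 and chr2:108534220-108534469 on the plus strand for LIMS1.
ITGA5: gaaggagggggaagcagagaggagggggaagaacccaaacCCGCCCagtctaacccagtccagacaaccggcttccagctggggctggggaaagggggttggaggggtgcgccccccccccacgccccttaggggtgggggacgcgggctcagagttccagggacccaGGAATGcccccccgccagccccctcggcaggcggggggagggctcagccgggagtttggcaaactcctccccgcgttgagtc
VCL: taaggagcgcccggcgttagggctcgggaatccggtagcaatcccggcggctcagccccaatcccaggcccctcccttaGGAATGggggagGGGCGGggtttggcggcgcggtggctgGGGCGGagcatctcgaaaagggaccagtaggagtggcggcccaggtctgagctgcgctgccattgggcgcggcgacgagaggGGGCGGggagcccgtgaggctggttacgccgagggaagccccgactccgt
FLNA: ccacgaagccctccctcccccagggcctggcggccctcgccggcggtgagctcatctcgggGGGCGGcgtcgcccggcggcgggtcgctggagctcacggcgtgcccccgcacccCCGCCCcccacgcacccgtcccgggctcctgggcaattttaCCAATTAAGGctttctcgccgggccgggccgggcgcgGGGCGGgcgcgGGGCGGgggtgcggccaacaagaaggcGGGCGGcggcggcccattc
TNS3: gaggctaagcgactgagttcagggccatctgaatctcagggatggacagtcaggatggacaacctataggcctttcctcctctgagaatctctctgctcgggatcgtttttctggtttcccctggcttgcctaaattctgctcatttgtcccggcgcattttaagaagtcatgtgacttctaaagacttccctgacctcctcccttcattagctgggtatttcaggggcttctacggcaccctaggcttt
LIMS1: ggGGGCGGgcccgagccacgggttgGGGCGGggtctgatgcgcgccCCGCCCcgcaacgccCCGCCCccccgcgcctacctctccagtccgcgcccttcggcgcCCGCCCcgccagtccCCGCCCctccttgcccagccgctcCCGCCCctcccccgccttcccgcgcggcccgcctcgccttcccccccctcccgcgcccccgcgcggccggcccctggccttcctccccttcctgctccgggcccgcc

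The ITGA5 and VCL windows each held 1 match to CATTCC, FLNA held the CArG box, LIMS1 held 7 matches to GGGCGG and TNS3 held none of the 4 motifs. Windows were found for 27 members. GGGCGG was in 7 of the 8 windows of genes called higher and in 3 of the 4 of genes called lower. It was in 6 of the 9 windows of members that did not pass and in 2 of the 6 of members not tested. CATTCC was in 2 of the 8, 0 of the 4, 1 of the 9 and 1 of the 6. GGGCGG was in 18 of the 27 (66.7%) and in 42.6% of the 35116 windows of the table, CATTCC was in 4 (14.8%) and in 11.9%, TGACTCA was in 1 (BCAR1) and in 4.2%, and the CArG box was in 1 (FLNA) and in 1.16%. Each member counted with 1 window, while all windows of the table were counted whatever the type or level of the gene, so the sets are unlike. These are matches of letters and say nothing of binding. The members ITGA3, ITGA7, ITGA9, ITGB3, ITGB4, PARVA, PTK2 and SRC had no window in the table.

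Among the 6 alpha subunits that were tested, the laminin receptor subunit ITGA3 rose most. ITGA3 (ENSG00000005884, chromosome 17 from 50055968 to 50090481 on GRCh38) pairs with the beta 1 subunit to bind laminins. The controls held 243.5, 243.4 and 241.8 TPM of it, against 395.6, 399.8 and 398.5 in the knockdown-labelled libraries. The groups stood far apart and each was very tight. The mean rose from 242.9 ± 0.959 to 398.0 ± 2.17 TPM (SD, n = 3 each), 1.64 times the control, with a log2 fold change of 0.71 ± 0.0158 (SE, adjusted p = 1.99e-06). The other laminin-binding subunits were far lower. ITGA7, known from muscle, lay between 10.3 and 12.1 TPM in the controls and between 10.4 and 11.8 TPM in the knockdown-labelled libraries (log2 fold change 0.02, 95% confidence interval -0.16 to 0.20). ITGA6, a subunit used by glioma stem cells, stayed between 0.4 and 0.83 TPM in all 6 libraries and was not tested.

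The fibronectin receptor subunit ITGA5 was the most abundant alpha subunit and rose as well. ITGA5 (ENSG00000161638, chromosome 12 from 54395261 to 54419460) was 567.5, 576.9 and 551.8 TPM in the controls and 719.8, 683.9 and 670.6 TPM in the knockdown-labelled libraries. Every knockdown-labelled library lay above every control. The mean went from 565.4 ± 12.7 to 691.4 ± 25.5 TPM (SD, n = 3 each), and its log2 fold change was 0.29 ± 0.031 (SE, adjusted p = 0.000773). ITGAV, which pairs with several beta subunits to bind vitronectin and latent TGF-beta, was 30.1, 31.4 and 31.3 TPM in the controls and 32.5, 31.8 and 31.1 TPM in the knockdown-labelled libraries. These values overlap, and the log2 fold change was 0.04 (95% confidence interval -0.05 to 0.12, adjusted p = 0.429). ITGA8, the remaining subunit that recognises the RGD peptide in its ligands, was listed at 0 in all 6 libraries.

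The collagen receptor subunits were scarce. ITGA2, which binds fibrillar collagen and laminin, fell, with 5.41, 5.18 and 5.79 TPM in the controls and 3.94, 3.87 and 3.70 TPM in the knockdown-labelled libraries. The groups did not overlap, and the log2 fold change was -0.42 ± 0.0711 (SE, adjusted p = 0.00516). ITGA1, another collagen receptor subunit, ranged from 1.45 to 2.94 TPM in the controls alone, a spread that covered the knockdown-labelled values of 1.52 to 2.36 TPM (log2 fold change -0.06, 95% confidence interval -0.55 to 0.44). Exons of ITGA1 share 475 bases on the same strand with PELO, at a mean of 15.7 TPM, so its reads could be split between the genes.

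The collagen receptor subunits ITGA10 and ITGA11 were under the limit for testing, yet their groups did not overlap. ITGA10, a subunit of cartilage, was 0.25, 0.13 and 0.21 TPM in the controls and 0.58, 0.67 and 0.58 TPM in the knockdown-labelled libraries. ITGA11, a receptor subunit of mesenchymal cells, was 0.04, 0.04 and 0.02 TPM in the controls and 1.09, 0.28 and 0.69 TPM in the knockdown-labelled libraries. Both genes were higher in all 3 knockdown-labelled libraries, and the controls of ITGA11 lay close to the rounding step of the table, so no fold is given for it. An exact two-sided permutation test over libraries gave p = 0.1 for each, the smallest p that 3 libraries against 3 allow. ITGA10 averaged over 0.1 TPM in both groups, and with the limit lowered to 0.1 TPM the limma fit gave it a log2 fold change of 0.43 (adjusted p = 0.0164). ITGA11 would pass that limit only through the knockdown-labelled libraries, so no p from that fit is given for it, and with no limit it did not pass (adjusted p = 0.0619). ITGA4, the partner of VCAM1 on leukocytes, lay between 0.39 and 0.7 TPM in all libraries and ITGA9, its relative, did not exceed 0.03 TPM.

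**Figure D2:**
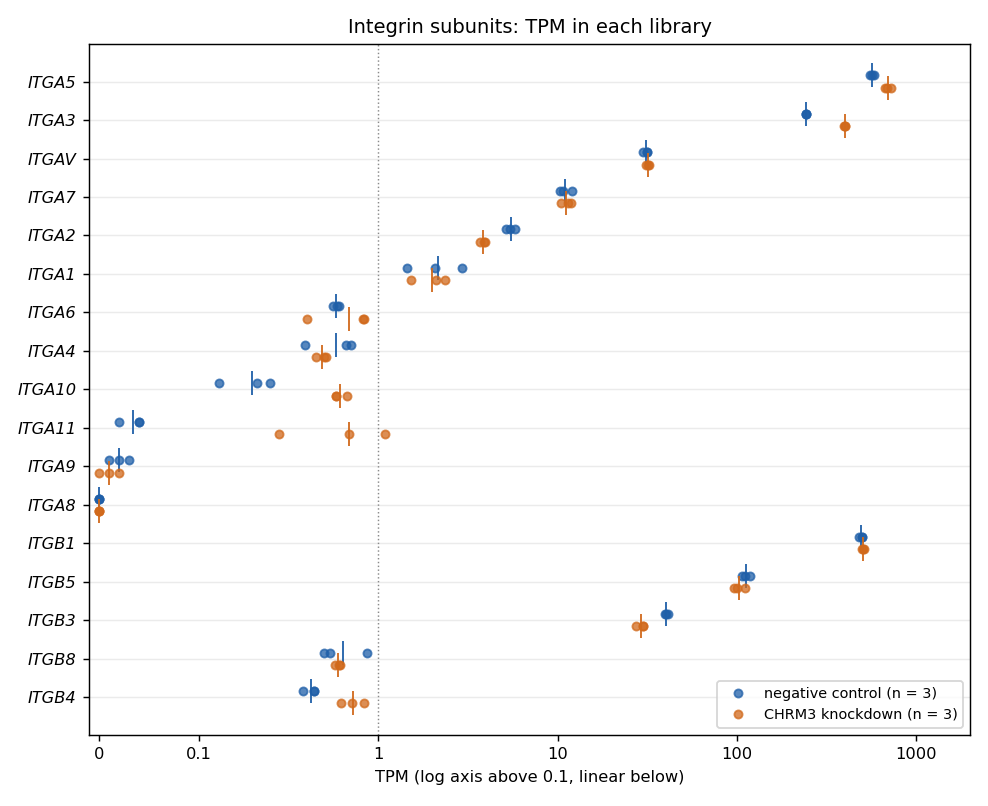
TPM of the 17 integrin subunits (x axis, logarithmic above 0.1 and linear below), with a point for each library, a vertical tick for each group mean, control in blue and knockdown-labelled in orange. The dotted line is the limit of 1 TPM for testing. ITGA5, ITGA3 and ITGB1 stand above 200 TPM, and the groups of ITGA3, ITGA5, ITGA2, ITGB3, ITGA10, ITGA11 and ITGB4 are set apart. Those of ITGB1 do not overlap either, by a narrow gap.

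Of the beta subunits, ITGB3 fell and ITGB1 differed little. ITGB3 (ENSG00000259207, chromosome 17 from 47253846 to 47311816), the partner of ITGAV in the vitronectin receptor, was 40.0, 41.2 and 39.7 TPM in the controls and 29.8, 30.0 and 27.3 TPM in the knockdown-labelled libraries. All 3 knockdown-labelled values lay below all controls. The log2 fold change was -0.46 ± 0.0453 (SE, adjusted p = 0.000556). An overlapping gene on the same strand, ENSG00000259753, shares 2266 exonic bases with ITGB3 and went from a mean of 6.49 to 2.74 TPM. Summed with it, a setting chosen after seeing the data, ITGB3 had a log2 fold change of -0.55.

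ITGB1, the partner of most alpha subunits here, was 494.2, 480.4 and 497.1 TPM in the controls and 512.6, 501.2 and 498.7 TPM in the knockdown-labelled libraries. The groups did not overlap, but the gap was narrow and the log2 fold change of 0.04 did not pass (95% confidence interval -0.01 to 0.09, adjusted p = 0.184). It passed after median-of-ratios scaling, at 0.11 (adjusted p = 0.0072), and after quantile normalization, at 0.08 (adjusted p = 0.029). ITGB1P1, a pseudogene of ITGB1, was listed at 73.6 to 86.5 TPM, and its reads may belong in part to ITGB1. Summed with ITGB1P1, also chosen after seeing the data, the log2 fold change of ITGB1 was 0.02 (adjusted p = 0.540). ITGB5, a further partner of ITGAV, lay between 106.3 and 118.0 TPM in the controls and between 96.0 and 110.2 TPM in the knockdown-labelled libraries, which overlap (log2 fold change -0.13, adjusted p = 0.140). Without knockdown replicate 2 the log2 fold change was -0.19 and passed (adjusted p = 0.0417).
ITGB4, the hemidesmosome subunit, was 0.38 to 0.44 TPM in the controls and 0.62 to 0.83 TPM in the knockdown-labelled libraries, without overlap (exact permutation p = 0.1), and did not pass in the limma fits with a lower limit or none. ITGB8, which activates latent TGF-beta, lay between 0.5 and 0.86 TPM in all libraries.

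Summed over subunits, the alpha TPM was higher in every knockdown-labelled library than in every control, and the beta TPM overlapped. The TPM of the 12 alpha subunits summed to 859.2 ± 14.3 in the controls and 1141 ± 24.3 in the knockdown-labelled libraries, and that of the 5 beta subunits to 643.7 ± 9.58 and 636.4 ± 11.3 (SD, n = 3 each). The ratio of the alpha sum to the beta sum was 1.32, 1.38 and 1.31 in the controls and 1.82, 1.76 and 1.80 in the knockdown-labelled libraries. The ranges of this ratio lay well apart. ITGA3 made up 28.3% ± 0.372 of the alpha TPM in the controls and 34.9% ± 0.898 in the knockdown-labelled libraries, whereas ITGA5 went from 65.8% ± 0.381 to 60.6% ± 0.935 (SD, n = 3 each). ITGA3 and ITGA5 thus held most of the alpha TPM, and both were called higher above. The alpha sum and the ratio largely restate their rise and do not show a shift of the other alpha subunits. Within the beta TPM, ITGB3 went from 6.26% ± 0.205 to 4.56% ± 0.158 and ITGB1 from 76.2% ± 0.848 to 79.2% ± 1.08 (SD, n = 3 each). For the alpha sum, the ratio and these 4 shares, an exact two-sided permutation test gave p = 0.1, the smallest the design allows, and 0.133 after Benjamini-Hochberg adjustment over 12 sums and shares. The beta sum had p = 0.4 by the same exact test.

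**Figure D3:**
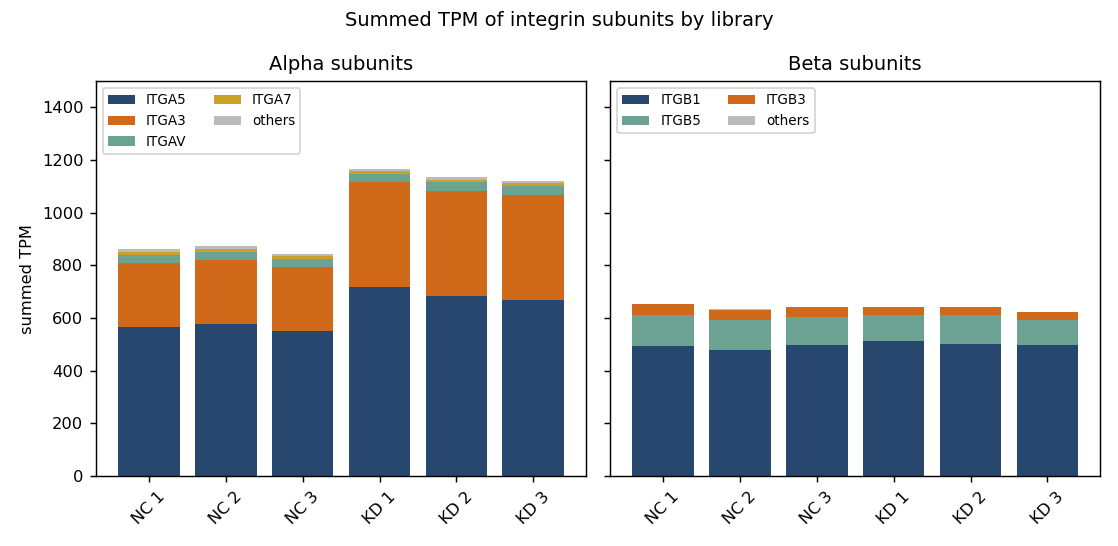
Summed TPM (y axis, from 0) of the alpha subunits on the left and the beta subunits on the right in each of the 6 libraries (NC control, KD knockdown-labelled), with each bar split by subunit. The alpha bars stand at 843.8 to 872.2 TPM in the controls and at 1120 to 1168 TPM in the knockdown-labelled libraries, while the beta bars stay between 623.4 and 653.1 TPM.

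The proteins that activate integrins moved apart. Talin 1 (TLN1), which binds the beta tail and pulls it onto actin, was 223.1, 244.3 and 233.5 TPM in the controls and 182.8, 198.3 and 196.0 TPM in the knockdown-labelled libraries. It fell in every knockdown-labelled library, with a log2 fold change of -0.28 ± 0.0446 (SE, adjusted p = 0.00393). Kindlin-2 (FERMT2), the partner of talin on the beta tail, was 21.4, 23.2 and 23.7 TPM in the controls and 29.6, 28.9 and 29.9 TPM in the knockdown-labelled libraries. It rose, without overlap of the groups, by a log2 fold change of 0.36 ± 0.0464 (SE, adjusted p = 0.00161). Talin 2 (TLN2), the less abundant talin, lay between 11.2 and 13.2 TPM in all 6 libraries (log2 fold change -0.02, 95% confidence interval -0.19 to 0.16).

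The complex of ILK, PINCH and parvin, which binds the beta tail and recruits actin, held 1 called member of 4 (25%). The share was 36.1% of all tested genes and 48.4% of those that averaged 10 TPM or more, as all 4 did. LIMS1, which encodes PINCH-1, went from 131.4 ± 1.40 to 120.5 ± 1.45 TPM (SD, n = 3 each), a log2 fold change of -0.12 (adjusted p = 0.00567). That call was lost after median-of-ratios scaling (adjusted p = 0.098) and quantile normalization (adjusted p = 0.0742). Its copies LIMS3 and LIMS4 are near-identical in part, and summed with them LIMS1 had a log2 fold change of -0.11 (adjusted p = 0.00711). The pseudokinase ILK was 122.7, 120.8 and 186.1 TPM in the controls and 133.7, 137.1 and 136.3 TPM in the knockdown-labelled libraries. Control replicate 3 stood far above the other controls, and with it the groups overlapped (log2 fold change -0.05, adjusted p = 0.848). Without control replicate 3 the log2 fold change was 0.15, in the other direction, and passed (adjusted p = 0.0101). It was also above 0, at 0.02 without passing, after median-of-ratios scaling and quantile normalization. ILK shares 2374 exonic bases on the opposite strand with TAF10, which was 85.5, 85.6 and 79.4 TPM in the controls and 103.9, 90.2 and 106.4 TPM in the knockdown-labelled libraries, and whether the counting used strand is not given in the sources used here. The parvins, which join ILK to actin, did not pass, with PARVA between 18.8 and 19.7 TPM and PARVB between 87.3 and 99.0 TPM in all libraries.

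Among the signalling proteins, SRC fell and its partner kinase FAK did not pass the test. SRC (ENSG00000197122, chromosome 20 from 37344685 to 37406050), the tyrosine kinase that phosphorylates FAK and its scaffolds, was 30.4, 29.8 and 30.5 TPM in the controls and 19.04, 20.7 and 20.3 TPM in the knockdown-labelled libraries. The gap between the groups was several times the spread within them, and the knockdown-labelled mean was 0.661 of the control mean. The log2 fold change was -0.57 ± 0.0417 (SE, adjusted p = 0.000168). PTK2, which encodes FAK, was 25.0, 24.0 and 27.7 TPM in the controls and 24.6, 24.6 and 24.2 TPM in the knockdown-labelled libraries. The values overlap, with a log2 fold change of -0.06 (95% confidence interval -0.19 to 0.07, adjusted p = 0.447). The scaffold BCAR1, a substrate of both kinases also called p130Cas, rose from 57.6 ± 0.469 to 66.1 ± 1.99 TPM (SD, n = 3 each), a log2 fold change of 0.19 (adjusted p = 0.00376). Paxillin (PXN), the scaffold for FAK and vinculin, lay between 128.7 and 134.1 TPM in the controls and between 132.7 and 140.5 TPM in the knockdown-labelled libraries (log2 fold change 0.05, adjusted p = 0.218). It passed after median-of-ratios scaling, at 0.12 (adjusted p = 0.0183), and after quantile normalization (adjusted p = 0.0365).

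**Figure D4:**
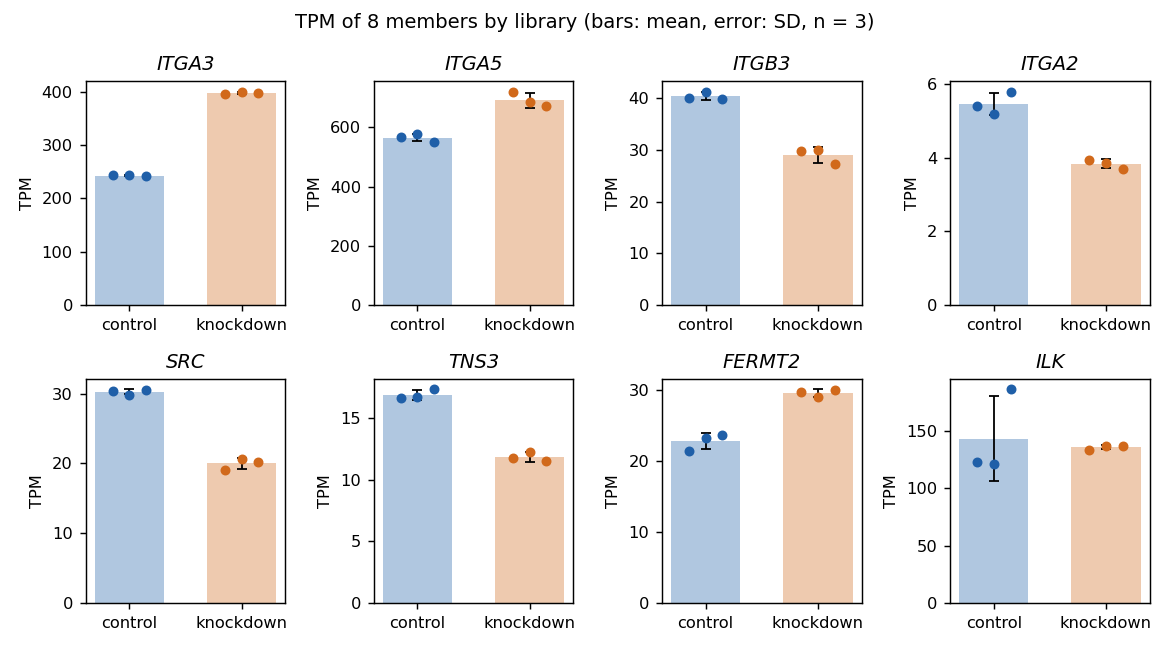
TPM (y axis, from 0) of 8 members in control (blue) and knockdown-labelled (orange) libraries, with bars for the mean, error bars for the SD (n = 3) and points for libraries. The groups are apart for ITGA3, ITGA5, ITGB3, ITGA2, SRC, TNS3 and FERMT2, and 1 control library of ILK lies at 186.1 TPM.

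Of the 7 linkers to actin, 5 rose, 1 fell and 1 did not pass. The called share was 85.7%, against 36.1% of all tested genes and 48.4% of those that averaged 10 TPM or more, and 7 genes are few. Zyxin (ZYX), which gathers where adhesions are under tension, was 249.2, 248.5 and 253.4 TPM in the controls and 294.6, 314.1 and 306.2 TPM in the knockdown-labelled libraries. No value of one group reached the other, and the log2 fold change was 0.28 ± 0.0272 (SE, adjusted p = 0.00051). Vinculin (VCL), which braces talin against actin, rose from 73.4 ± 1.58 to 84.3 ± 2.68 TPM, and alpha-actinin 4 (ACTN4), an actin crosslinker, from 308.7 ± 3.90 to 359.5 ± 13.8 TPM (SD, n = 3 each), with log2 fold changes of 0.20 and 0.22 (adjusted p = 0.00486 and 0.00219). VCL shares 1109 exonic bases on the opposite strand with AP3M1, at a mean of 25.5 TPM.

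Filamin A (FLNA), a crosslinker that also binds beta tails, was the most abundant member. Its TPM was 903.9, 914.8 and 915.5 in the controls and 985.1, 997.7 and 983.5 in the knockdown-labelled libraries. The rise was slight but larger than the spread, with a log2 fold change of 0.12 ± 0.0138 (SE, adjusted p = 0.00111). Alpha-actinin 1 (ACTN1) lay between 263.5 and 276.7 TPM in the controls and between 278.5 and 284.8 TPM in the knockdown-labelled libraries, without overlap, and its log2 fold change of 0.07 did not pass (adjusted p = 0.0656). It passed after median-of-ratios scaling, at 0.14 (adjusted p = 0.00495), after quantile normalization (adjusted p = 0.0066) and without control replicate 3 (adjusted p = 0.0257).

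The tensins, which bind beta tails and mark mature fibrillar adhesions, moved in opposite directions. TNS3 was 16.6, 16.7 and 17.3 TPM in the controls and 11.8, 12.3 and 11.5 TPM in the knockdown-labelled libraries. It fell in all 3 by a wide margin over the spread, with a log2 fold change of -0.48 ± 0.0451 (SE, adjusted p = 0.000481). TNS1 was 2.27, 3.74 and 2.08 TPM in the controls and 4.25, 5 and 4.56 TPM in the knockdown-labelled libraries. It was higher in every knockdown-labelled library, but control replicate 2 came near them, and the estimate was less precise, at a log2 fold change of 0.63 ± 0.174 (SE, adjusted p = 0.0327). Leaving out single libraries ended the call for 5 of the 6 (control replicates 1 and 3 and all 3 knockdown-labelled libraries, adjusted p between 0.062 and 0.0966), with log2 fold changes of 0.51 to 0.67, and it was also lost with no limit on low values, at the same log2 fold change (adjusted p = 0.0923).

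**Figure D5:**
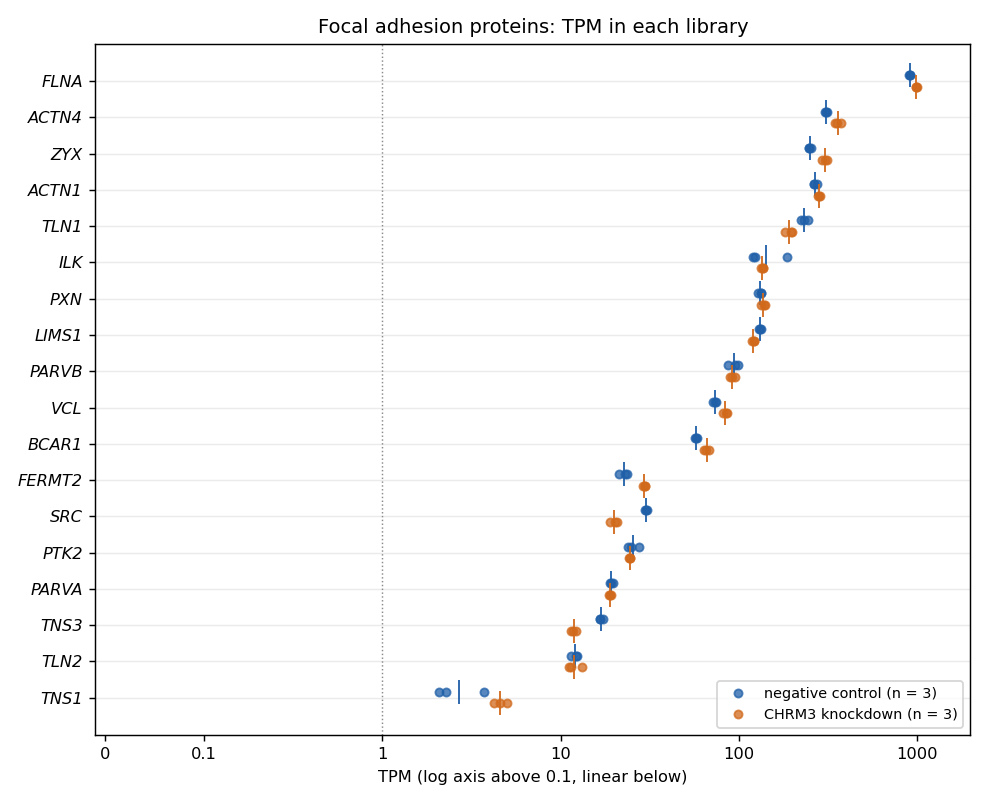
TPM of the 18 focal adhesion proteins (x axis, logarithmic above 0.1), with a point for each library, a vertical tick for each group mean, control in blue and knockdown-labelled in orange. FLNA is highest at 903.9 to 997.7 TPM and TNS1 lowest at 2.08 to 5 TPM, and the separation is clearest for SRC, TNS3, FERMT2 and ZYX.

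A wider list of 59 further integrin subunits and adhesion proteins was read in the same fit. Of the 46 that were tested, 19 (41.3%) were called, 10 higher and 9 lower, near the 36.1% of all tested genes, and their median log2 fold change was 0.05. Among the called genes of this list, 3 reached an absolute log2 fold change of 0.5, a size not counted over all tested genes. Leupaxin (LPXN), a relative of paxillin, fell from 136.6 ± 4.55 to 80.4 ± 1.41 TPM (SD, n = 3 each), and its log2 fold change was -0.76 ± 0.0315 (SE, adjusted p = 2e-05). ENAH, which extends actin filaments at adhesions and the cell edge, rose from 26.6 ± 1.33 to 43.9 ± 3.31 TPM (SD, n = 3 each), and its log2 fold change was 0.70 (adjusted p = 0.000407). SORBS2, an adaptor that binds vinculin, fell from 19.3 ± 1.75 to 12.8 ± 2.63 TPM (SD, n = 3 each), and its log2 fold change was -0.57 (adjusted p = 0.0239). Without control replicate 1 the number of called genes on this list went from 19 to 12 (26.1%), against 28.1% of all tested genes in that fit.

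Of the 9 further integrin subunits, 7 stayed under 1 TPM on average, among them the leukocyte subunits ITGAL, ITGAM and ITGB2 and the platelet subunit ITGA2B. The 2 that were tested were both called lower, against 24% of all tested genes, and 2 genes are few. Both are named here after their values were seen. ITGAE, the subunit of the lymphocyte receptor for E-cadherin, was 52.1 ± 3.16 and 45.2 ± 2.57 TPM, and ITGAX, a subunit of myeloid cells, was 2.57 ± 0.251 and 1.78 ± 0.13 TPM (SD, n = 3 each), with adjusted p of 0.0406 and 0.0376. The beta partners of these subunits, ITGB7 and ITGB2, did not exceed 0.39 and 0.15 TPM in any library. The leukocyte and platelet markers summed to 1.01 to 1.19 TPM in the controls and 0.5 to 0.69 TPM in the knockdown-labelled libraries, mostly from LAPTM5, and their part in the fall of ITGAX was not tested.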

How the data were processed

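Paired-end RNA sequencing of U87-MG cells was carried out on 3 control and 3 knockdown-labelled libraries. The authors deposited TPM values, rounded to 2 decimals, for each library in 1 table. Per the labels, the submitters' processing notes name fastp, RSEM and the build GRCh38.p13, with no versions. The paper names a TruSeq kit and the labels a SMARTER kit. 0 columns were left without a sample.

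The test was limma 3.58.1 (R 4.3.3; lmFit and eBayes with a trend, group as the only term) on log2(TPM + 1), run on the 13722 genes that averaged 1 TPM or more, with Benjamini-Hochberg adjustment over all of them. A fold change on this scale understates the change of low genes. Calls required an adjusted p under 0.05. The fit was tested on simulated data with absolute log2 fold changes of 0.5 and 1 planted in a small part of the genes. It missed part of these changes, more of them in low genes. Most called members changed by less than 0.5, and far more genes were called in the real data, so the simulation does not give the share missed here. The limit for passing this check was changed after its first run, and the fit was not. A member that did not pass is not shown to be unchanged. Single values outside the fit were compared by an exact permutation test. Positions and overlaps came from GENCODE 29 (GRCh38), and promoters from RefSeq.

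The named genes were all 35 members, and of the wider list the called genes with a log2 fold change of 0.5 or more in either direction, at most 8. The members and lists were chosen with earlier results of these data known. Alternatives changed the pseudocount, the limit on low values, the scaling, the mitochondrial transcripts kept, the variance model and the replicate block, and left out each library in turn. Sums of ITGB1 and ITGB3 with an overlapping or copied gene were added after seeing the data.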

Additional observations from a re-analysis of the deposited data

How the results depend on the processing

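The number of called members was 15. It lay between 13 and 17 under the other pseudocounts, limits on low values, scalings and variance models, and between 14 and 16 with each library left out. The fits with a library left out called 51.9% to 59.3% of the tested members, against 28.1% to 30.7% of all tested genes. In the fits on all libraries the called share of the tested members lay between 44.1% (no limit on low values, where 13.3% of all genes were called) and 63% (both other scalings, 33.2% and 32.5% of all genes), with 54.2% at a limit of 5 TPM (45.8% of all genes). With a limit of 0.1 TPM the 17 calls include ITGA11, which passes that limit only through the knockdown-labelled libraries. The number of called members was 3 when a log2 fold change of 0.5 or more in either direction was also asked for. All tested genes were not counted at that size. No alternative gave a member an absolute log2 fold change of 1 with an adjusted p under 0.05. Of the 15 calls, 13 were kept in every alternative in which the gene was tested, and those of LIMS1 and TNS1 were lost in some. ILK reversed to 0.155 without control replicate 3, the other end of its range with each library left out being -0.155. The median log2 fold change of the members went from 0.02 to 0.0851 with median-of-ratios scaling and to 0.0796 with quantile normalization, which move the median of all tested genes from -0.06 to 0.0028 and 0.0021, and lay between 0.0094 and 0.0472 with each library left out. On the wider list, 19 genes were called, and 12 with no limit on low values (20.3%, against 13.3% of all genes). With each library left out, 12 to 17 of its genes were called (26.1% to 37%, against 28.1% to 30.7% of all tested genes). The cause of these shifts was not tested.

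No pairing by the numbers in the labels was seen. The deviations of same-numbered libraries correlated at -0.0198, 0.0341 and 0.0334, and not every library correlated best with its own number. Such values cannot show whether same-numbered libraries were handled together. With a replicate block, 15 members (55.6% of those tested) and 13 genes of the wider list (28.3%) were called, against 29.2% of all tested genes. TPM keeps no depth, so the precision of members under 1 TPM is not known.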
